A study of Homo sapiens with 120 samples.

Results

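Of the 120 RNA sequencing libraries of the series, 16 are compared here. They are 8 libraries from CFPAC-1 cells on microrafts labelled as proliferative and treated with gemcitabine at 5 nM, and 8 from proliferative microrafts treated with saline. CFPAC-1 is an established pancreatic ductal adenocarcinoma line that came from a person with cystic fibrosis. A microraft is a releasable platform in an array, so that the cells growing on it can be picked together. The members were chosen by their labels for treatment and proliferation, and no measured value was used. The labels give no exposure time, no number of cells per raft and no statement of how proliferation was judged. No allele or transgene is labelled for any group. The other libraries of the gemcitabine experiment, 8 per group, are proliferative and nonproliferative rafts left untreated or given saline, 2 nM or 5 nM gemcitabine. No label names a library pool. Index pairs in the titles recur between treatments and not within one. Each treatment may thus have been a pool of its own, and treatment and pool cannot be told apart. Nothing in the labels says that rafts of a treatment came from separate cultures, so the p-values measure the spread between rafts.

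Gemcitabine is an analog of deoxycytidine. Cells take it up through nucleoside transporters and phosphorylate it, first by deoxycytidine kinase, and its phosphates stop DNA chain extension and inhibit ribonucleotide reductase. Stalled replication activates checkpoint and p53 signalling, and stressed cells can also switch on the integrated stress response, in which ATF4, DDIT3 and ATF3 act as transcription factors and PPP1R15A restores translation. These pathways are given first, and the machinery of cell growth and of drug metabolism after them. FPKM, a read count scaled for transcript length and library size, is the unit of every level below, and each difference is 5 nM minus saline on the log2(FPKM + 1) scale, which understates changes of low genes. Detection means an FPKM of at least 1. An exact 0 is given only as listed at 0, since EIF1, a translation initiation factor of all cells, is itself listed at 0 in 5 nM replicate 7 and saline replicate 5. Unless all 8 are named, ranges and medians of saline rafts cover the 7 libraries of 1000 or more genes.

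The 5 nM rafts gave libraries that ranged from few to many genes, while all saline rafts but 1 resembled bulk CFPAC-1 RNA. Genes detected in 5 nM replicates 1 to 8 numbered 7007, 10075, 2506, 9109, 1200, 1759, 334 and 3624. The saline replicates 1 to 8 had 9525, 9195, 4811, 10099, 735, 7781, 6551 and 4029. The ranges overlapped over most of their length. The mean was 4452 ± 3762 in 5 nM rafts and 6591 ± 3232 in saline rafts (SD, n = 8 each), a difference of -2139 genes with a two-sided exact permutation p of 0.2345. Likeness to bulk was measured as Spearman's rho with the mean of 4 untreated bulk libraries over 10767 genes. It was 0.458, 0.705, 0.356, 0.648, -0.022, 0.303, 0.039 and 0.069 in 5 nM replicates 1 to 8. In saline replicates 1 to 8 it was 0.786, 0.751, 0.558, 0.808, 0.08, 0.689, 0.633 and 0.466. The mean rho was 0.319 ± 0.276 in 5 nM rafts and 0.596 ± 0.239 in saline rafts, a difference of -0.277 with an exact permutation p of 0.0519, or 0.104 after Benjamini-Hochberg adjustment over these 2 tests. With only the libraries of 1000 or more genes, 7 per group, the rho difference was -0.311 and its exact permutation p 0.0181. It also passed 0.05 without saline replicate 5 (-0.351, exact permutation p 0.00963). Of all alternatives tried for rho, 5 passed 0.05 and 13 missed it. As bulk was untreated, rho can also be lower where a treatment changes expression, and fewer cells on a raft and less RNA per cell cannot be told apart.

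**Figure D1:**
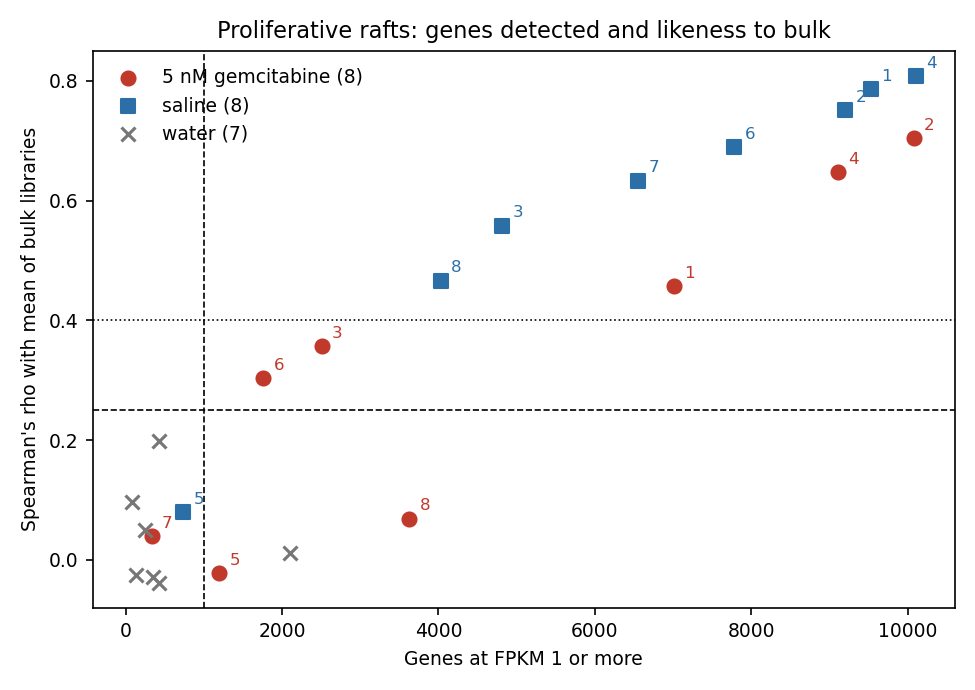
Genes at FPKM 1 or more (x axis) against Spearman's rho with the mean of the bulk libraries (y axis) for the 8 5 nM libraries, the 8 saline libraries and 7 water libraries, with replicate numbers beside the points. Dashed lines mark 1000 genes and a rho of 0.25 and the dotted line a rho of 0.4. The 5 nM replicates 5, 7 and 8 and saline replicate 5 lie below a rho of 0.25, as all 7 water libraries do.

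Libraries of 1000 or more genes were 7 of 8 in each group, without 5 nM replicate 7 and saline replicate 5. A rho of 0.25 or more further left out 5 nM replicates 5 and 8 and kept 5 5 nM libraries (replicates 1, 2, 3, 4 and 6) and 7 saline libraries. In replicates 5 and 8 the MTRNR2L genes, which resemble mitochondrial ribosomal RNA, held 6.74% and 7.69% of all FPKM, against 0.0075% to 0.419% in the 5 5 nM libraries kept and 0.0134% to 0.210% in the 7 saline libraries. Water libraries, at 81 to 2097 genes, had an MTRNR2L share of 0% to 0.134%, so in that share these replicates were unlike water. Libraries labelled with 0 cells from another platform, Fluidigm C1, had 0.0499% to 49.3%, so a high share also occurred without a labelled cell. Replicate 8 had more genes than any water library (3624), and 64 of 71 rows for cytosolic ribosomal proteins detected. Genes short of 1 FPKM in bulk made up 38.75% and 36.9% of those detected in replicates 5 and 8. In water libraries such genes made up 3.70% to 44.4%, against 9.72% to 16.7% in the 5 5 nM libraries kept. The 7 saline libraries had 8.11% to 11.5%. Whether 5 nM replicates 5 and 8 held cell RNA was not tested. Nor was their part in the results, which are given with and without them. Libraries of the 5 nM group were also less alike. The median pairwise rho among the 7 libraries of 1000 or more genes was 0.258 (range -0.016 to 0.676) in 5 nM rafts and 0.603 (range 0.459 to 0.854) in saline rafts, and among the 5 5 nM libraries kept by rho it was 0.358 (range 0.258 to 0.676).

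Markers of the cell line's origin were present in both groups. Of 32 table rows for epithelial and ductal genes, 7 to 30 were detected in the 5 5 nM libraries with a rho of 0.25 or more and 13 to 29 in the 7 saline libraries. Of the 31 tested, 15 were higher and 16 lower in 5 nM rafts with a rho of 0.25 or more. With a rho of 0.4 or more 26 were higher and 5 lower. EPCAM, an epithelial adhesion protein, had a median of 33.1 FPKM in 5 nM rafts and 79.6 FPKM in saline rafts among libraries of 1000 or more genes. CFTR, the chloride channel gene mutated in cystic fibrosis, was listed at 0 in all of them. Blood, endothelial and fibroblast markers had no member among the genes tested. Their summed share was at most 0.0561% of FPKM in any of the 16 libraries, with CDH5, PECAM1, COL1A2 and COL3A1 listed at 0 in all libraries of 1000 or more genes. Of 8 keratinocyte marker names, 2 were among the genes tested, and 0 were called in any set of libraries.

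Few genes passed the test in the sets of libraries asked for, and the sets shared none. With libraries of 1000 or more genes, limma called 8 of 11560 table rows (0.0692%) at an adjusted p under 0.05, none higher and 8 lower in 5 nM rafts. At an unadjusted p under 0.05 there were 1722. With libraries of a rho of 0.25 or more it called 3 (0.026%), 1 higher (0.00865%) and 2 lower (0.0173%), and 1153 at an unadjusted p under 0.05. No gene was called in both, and the 3 calls of the second set were lost when the 5 nM and saline groups were fitted alone. The median difference of all rows was -0.70 in the first set and -0.34 in the second, so a gene or list near those values moved like the bulk of the table. The lists given below differ in level, and rows low in saline rafts have little room to fall. Mean log2(FPKM + 1) in the 7 saline libraries was 7.45 to 8.64 for proteasome genes and 0.962 to 2.48 for immediate early genes. No comparison matched for level was made. The share of all rows without overlap between the groups was not counted, so a lack of overlap given below has no background beside it. A stricter rho of 0.4 left 3 5 nM libraries (replicates 1, 2 and 4) and the same 7 saline libraries. It called 143 rows (1.24%), 97 higher (0.839%) and 46 lower (0.398%), with a median over all rows of 0.23. That setting is followed below because of its count, which was known when it was chosen, and naming its genes extends the naming rule after the values were seen. It rests on 3 rafts: leaving out 5 nM replicate 1, 2 or 4 in turn gave 43, 253 or 184 calls, and without replicate 1 only 23 of the 143 held. Leaving out a saline library kept 85 to 107 of them, and 16 of the 143 were lost in no case. Of the genes given below as passing in this set, ATF3, PFN1 and MYL6 alone kept their call without 5 nM replicate 1.

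**Figure D2:**
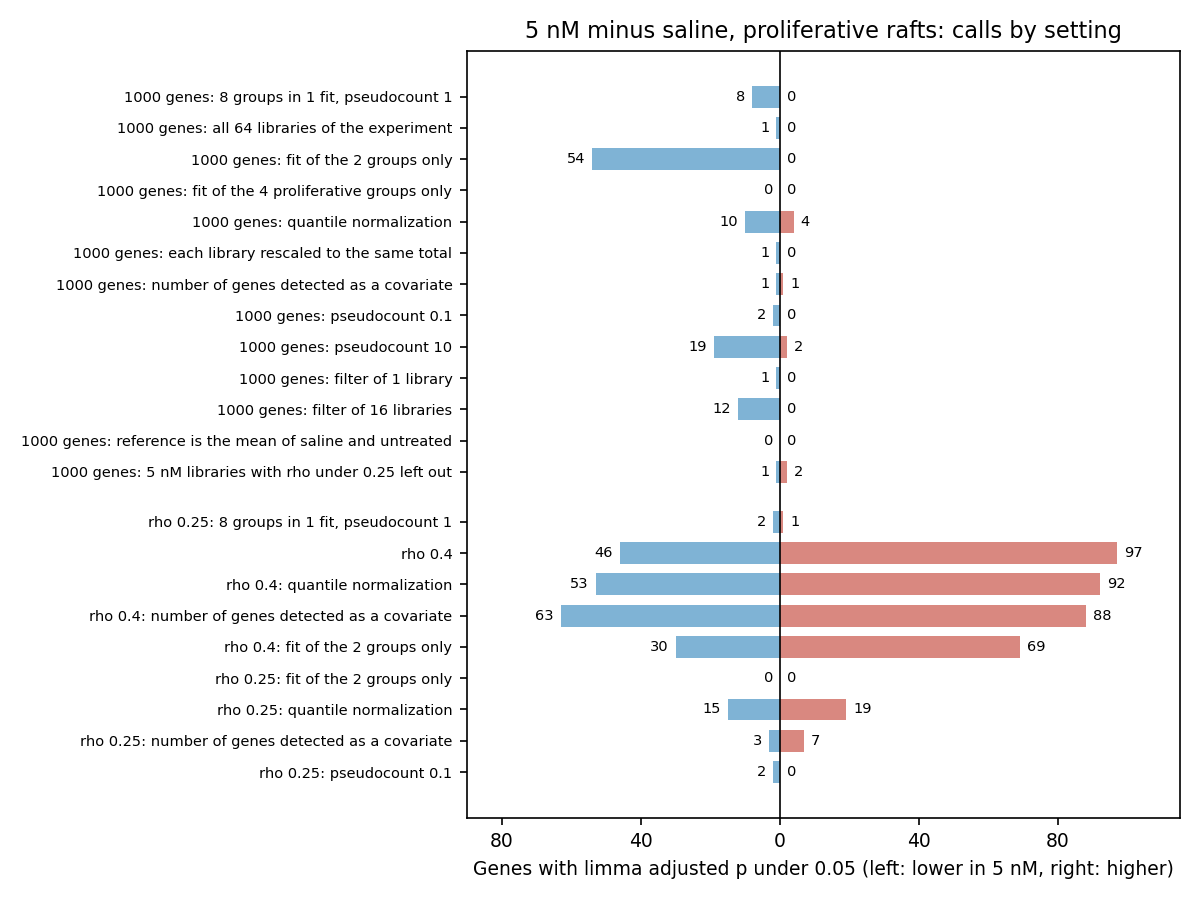
Rows with a limma adjusted p under 0.05 for 5 nM minus saline (x axis, lower in 5 nM to the left of 0 and higher to the right) under each setting that leaves out no single library (y axis). Of the settings with 1000 or more genes, the fit of the 2 groups alone had the most calls (54), and a rho of 0.4 or more gave 143.

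ATF3, a stress-induced transcription factor, was the 1 gene that rose in the libraries with a rho of 0.25 or more. It had 656, 289.7, 347 and 167 FPKM in 5 nM replicates 1 to 4 and was listed at 0 in replicates 5 to 8. In saline rafts it had 13 FPKM in replicate 8 and was listed at 0 in the other seven. Replicates 1 to 4 of the 5 nM group thus lay above every saline raft, while replicate 6 of the libraries kept did not. The difference was 6.13 ± 1.25 (SE; limma adjusted p = 0.0485), against 4.22 ± 1.15 with libraries of 1000 or more genes (limma adjusted p = 0.0911). Leaving out single libraries ended the call in 8 of 12 cases, with limma adjusted p from 0.000314 to 0.1845. With the 3 5 nM libraries of a rho of 0.4 or more it was 7.77 ± 1.05 (limma adjusted p = 0.000615), and no single left-out library ended that call. Across proliferative rafts ATF3 was listed at 0 in all 8 untreated rafts and was detected in 1 of 8 saline, 1 of 8 2 nM (32.4 FPKM) and 4 of 8 5 nM rafts. It was also detected in 4 of 8 nonproliferative 5 nM rafts, at 158, 136, 4.65 and 183 FPKM, so nothing here is particular to proliferative rafts. The bulk libraries had at most 0.91 FPKM.

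Promoters of the stress genes are printed because ATF3, PPP1R15A and HSPA8 carry the calls described, and sites known for stress responses can be looked for. Sequences are from RefSeq on GRCh38.p14, 250 bases before to 50 after a transcript start, and letters in capitals mark motif matches. The motifs searched on both strands were TGATGNAAN (the C/EBP-ATF response element), TGACGTCA (the cyclic AMP response element) and GAANNTTC (a heat shock element pair), and no window printed holds more than 1 kind. They were found in 3.61%, 1.85% and 6.77% of 35116 promoters of the same length. The first of 2 ATF3 starts (chr1:212565157-212565456, plus strand) has a TGATGNAAN match whose first base is at -191, and the second has none of the 3. PPP1R15A (chr19:48872171-48872470, plus strand) has TGACGTCA at -58. A match is a description of the letters only, and DDIT3 and GDF15 have none of the 3.
ATF3: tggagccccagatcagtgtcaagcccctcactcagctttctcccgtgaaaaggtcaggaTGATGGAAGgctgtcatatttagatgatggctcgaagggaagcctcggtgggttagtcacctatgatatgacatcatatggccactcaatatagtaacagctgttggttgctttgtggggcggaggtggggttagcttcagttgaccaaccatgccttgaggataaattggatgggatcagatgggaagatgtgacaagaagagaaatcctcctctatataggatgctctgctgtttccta
PPP1R15A: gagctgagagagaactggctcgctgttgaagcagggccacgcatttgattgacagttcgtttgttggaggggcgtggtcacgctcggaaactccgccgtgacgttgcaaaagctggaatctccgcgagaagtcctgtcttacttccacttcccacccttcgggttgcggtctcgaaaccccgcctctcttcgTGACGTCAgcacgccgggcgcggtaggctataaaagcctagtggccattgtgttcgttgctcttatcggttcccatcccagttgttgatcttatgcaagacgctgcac

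Of the other integrated stress response genes, DDIT3, PPP1R15A and SLC3A2 had their high values in 5 nM rafts, and PPP1R15A alone passed, with a rho of 0.4 or more. DDIT3, which encodes the transcription factor CHOP, had 2597, 842, 1647, 432 and 3370 FPKM in 5 nM replicates 1, 2, 3, 4 and 8 and was listed at 0 in replicates 5, 6 and 7. Saline rafts of 1000 or more genes had 0, 48.0 and 231 FPKM (lowest, median and highest). The 5 detected 5 nM rafts all lay above every saline raft, yet the zeros of replicates 5 and 6 made the groups overlap. DDIT3 was named after its values were seen. The difference was 2.84 ± 1.80 with a rho of 0.25 or more (limma adjusted p = 0.619) and 4.68 ± 1.86 with a rho of 0.4 or more (limma adjusted p = 0.25). PPP1R15A, the phosphatase subunit that reverses the translational block, had 1797, 134, 0, 207 and 21.9 FPKM in 5 nM replicates 1, 2, 3, 4 and 6, against 0, 4.72 and 23.9 FPKM (lowest, median and highest) in saline rafts. It rose with a rho of 0.4 or more (6.35 ± 1.35, limma adjusted p = 0.016). SLC3A2, the heavy chain of an amino acid transporter, had 730, 654, 417 and 2633 FPKM in 5 nM replicates 1 to 4, against 0 to 226 FPKM in saline rafts, and its difference of 4.56 ± 1.92 with a rho of 0.4 or more did not pass (limma adjusted p = 0.288). Of 26 rows of unfolded protein and integrated stress response genes, 15 were higher and 11 lower with a rho of 0.25 or more (median 0.28, against -0.34 over all rows), and 24 higher and 2 lower with a rho of 0.4 or more (median 1.76, against 0.23). Only PPP1R15A was called in the second set and no row in the first.

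Immediate early genes, which cells switch on within minutes of a stimulus, were the list with the highest median in libraries of a rho of 0.25 or more. Of 19 rows, 15 were higher and 4 lower there (median 1.53, against -0.34), with ATF3 the only call. With a rho of 0.4 or more 17 were higher and 2 lower (median 2.73, against 0.23), and ATF3, IER5 and KLF4 rose. Leaving out single libraries ended the IER5 and KLF4 calls in 7 of 10 cases each (limma adjusted p up to 0.252 and 0.188) and the ATF3 call in 0. IER5 had 128, 48.7, 83.5 and 39.7 FPKM in 5 nM replicates 1 to 4 and was listed at 0 in replicate 6, against 0, 3.15 and 7.22 FPKM (lowest, median and highest) in saline rafts. KLF4, a transcription factor of epithelial differentiation, had 35.6, 7.32 and 100.35 FPKM in 5 nM replicates 1, 2 and 4, against 0 to 3.87 FPKM in saline rafts. JUN, named after its values were seen, had 33.05, 3.99, 111 and 20.4 FPKM in 5 nM replicates 1 to 4, against 0 to 5.71 FPKM in saline rafts, and did not pass (2.70 ± 0.95 with a rho of 0.25 or more, limma adjusted p = 0.286). FOSL1, a partner of JUN, was among the lower ones, with a median of 104 FPKM in 5 nM rafts and 1102 FPKM in saline rafts of 1000 or more genes, although 5 nM replicate 1 had 2280 FPKM.

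Several p53 target genes had their highest values in 5 nM replicates 1 to 4, without a call in either set asked for. CDKN1A, the p21 inhibitor of cyclin-dependent kinases, had 207, 462, 589 and 461 FPKM in 5 nM replicates 1 to 4 and was listed at 0 in replicates 5 to 8. Saline rafts of 1000 or more genes had 0, 38.2 and 80.3 FPKM (lowest, median and highest). Those 4 5 nM rafts lay above every saline raft, and the difference was 2.08 ± 1.25 with a rho of 0.25 or more (limma adjusted p = 0.592) and 3.63 ± 1.01 with a rho of 0.4 or more (limma adjusted p = 0.0711). The untreated proliferative rafts with a rho of 0.25 or more had 753, 224, 196 and 577 FPKM, in the range of 5 nM replicates 1 to 4, and bulk had at most 8.87 FPKM. PMAIP1, the proapoptotic NOXA gene, had 261, 131, 1181 and 1422 FPKM in 5 nM replicates 1 to 4 and 0 to 41.95 FPKM in saline rafts (3.80 ± 1.59 with a rho of 0.25 or more, limma adjusted p = 0.416). GADD45A, a damage-inducible gene, had 1155, 155, 119 and 232 FPKM in those replicates and 5.93 to 62.1 FPKM in saline rafts. PMAIP1 and GADD45A were named after their values were seen. GDF15, a secreted stress cytokine, had 42.7, 298 and 61.2 FPKM in 5 nM replicates 1, 2 and 4 and was listed at 0 in every other 5 nM raft and all 8 saline rafts. It was the 1 call among 23 p53 target rows, with a rho of 0.4 or more (limma adjusted p = 0.0282). There 18 rows were higher and 5 lower (median 1.53, against 0.23), while with a rho of 0.25 or more 11 were higher and 12 lower (median -0.03, against -0.34, which turned to 0.43 after quantile normalization and 0.42 with genes detected as a covariate).

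**Figure D3:**
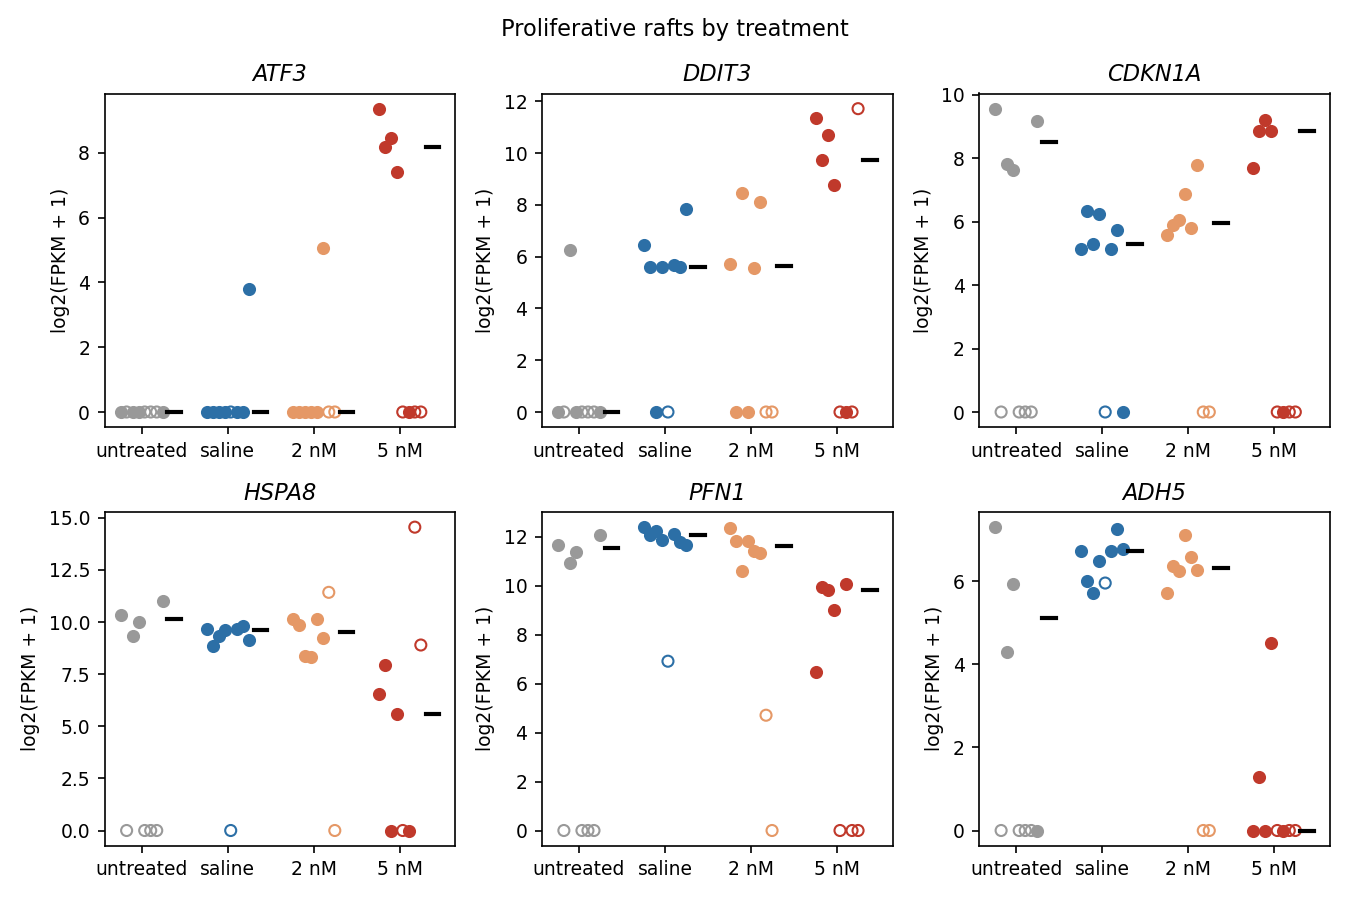
log2(FPKM + 1) of ATF3, DDIT3, CDKN1A, HSPA8, PFN1 and ADH5 (y axis) in untreated, saline, 2 nM and 5 nM proliferative rafts (x axis), 8 per treatment. Filled points are libraries with a rho of 0.25 or more, open points the others, and the black line is the median of the filled points. ATF3 is listed at 0 in all untreated rafts and reaches 656 FPKM at 5 nM, and CDKN1A is high in both untreated and 5 nM rafts.

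Inflammatory genes, snoRNA host genes and lysosomal genes stood above the median of all rows too. IL8, a neutrophil chemokine, had 1839, 907 and 467 FPKM in 5 nM replicates 1, 2 and 4, against 0 to 103 FPKM in saline rafts, and rose with a rho of 0.4 or more (6.96 ± 1.78, limma adjusted p = 0.0476), a call lost in 9 of 10 cases when single libraries were left out (adjusted p up to 0.278). PTGS2, an inducible cyclooxygenase, had 411, 138 and 88.7 FPKM in the same rafts and 0 to 9.11 FPKM in saline rafts, and rose there (6.15 ± 1.30, limma adjusted p = 0.0153). Of 23 rows of NF-kB and inflammatory genes, 16 were higher and 7 lower with a rho of 0.25 or more (median 0.83) and 21 higher and 2 lower with a rho of 0.4 or more (median 3.09). NFKBIA, the inhibitor that NF-kB induces as feedback, had 2701, 92.7 and 108 FPKM in 5 nM replicates 1, 2 and 4, and 0 to 518 FPKM in saline rafts, so only replicate 1 lay above the saline range. SNHG5, which hosts snoRNAs in its introns, had 1069.6, 117, 132, 81.5 and 205 FPKM in the 5 5 nM libraries with a rho of 0.25 or more, against 0, 6.28 and 45.6 FPKM (lowest, median and highest) in saline rafts. The groups did not overlap, and the difference was 5.07 ± 1.29 (limma adjusted p = 0.121), passing only with a rho of 0.4 or more (5.23 ± 1.25, limma adjusted p = 0.034), a call lost in 4 of 10 cases when single libraries were left out. Summed over the list, snoRNA host genes held 1.01%, 0.218%, 0.117%, 0.186% and 0.0769% of FPKM in those 5 nM libraries and 0.0366% to 0.0715% in saline libraries of a rho of 0.25 or more. SNHG12 had 661, 44.4 and 32.15 FPKM in 5 nM replicates 1, 2 and 4 and was listed at 0 in all saline rafts.

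Of 32 lysosome and autophagy rows, 24 were higher and 8 lower with a rho of 0.25 or more (median 0.54), and 31 were higher and 1 lower with a rho of 0.4 or more (median 2.22). MAP1LC3B, an autophagosome protein, had 905, 358, 389, 471 and 244 FPKM in the 5 5 nM libraries with a rho of 0.25 or more, against 0, 84.1 and 104 FPKM (lowest, median and highest) in saline rafts. The groups did not overlap, but the difference of 3.39 ± 1.23 did not pass (limma adjusted p = 0.292). MAP1LC3B was named after its values were seen, so the lack of overlap is a description only. NPC1, a lysosomal cholesterol exporter, was the 1 call of the list, with a rho of 0.4 or more (105, 65.0 and 86.95 FPKM in 5 nM replicates 1, 2 and 4, against 0 to 4.91 FPKM in saline rafts; limma adjusted p = 0.0301). EIF1 had 5029, 2482, 5886, 5196 and 1044 FPKM in the libraries with a rho of 0.25 or more, against 1264 to 1969 FPKM in saline rafts, and rose with a rho of 0.4 or more (1.29 ± 0.28, limma adjusted p = 0.01625). CITED2, a transcriptional coregulator, had 37.7, 45.4 and 6.12 FPKM in 5 nM replicates 1 to 3 and was listed at 0 in all saline rafts.

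Genes named as higher by smallest p in libraries of 1000 or more genes, without passing there, included NANOS1, an RNA-binding repressor, at 8.32, 1.23, 21.1, 20.75 and 71.3 FPKM in 5 nM replicates 1, 2, 3, 5 and 6, against 3.17 FPKM in saline replicate 1 alone (2.49 ± 0.75, limma adjusted p = 0.101). IFIT2, an interferon-stimulated gene, had 1829.8 and 2581 FPKM in 5 nM replicates 3 and 4 and 14.4 and 27.5 FPKM in replicates 1 and 5, against at most 4.40 FPKM in saline rafts (3.51 ± 1.12, limma adjusted p = 0.1195). The others named this way were PRSS22, STEAP4, RNF39, ZNF292, SOCS1 and PPDPF, with differences of 2.27 to 3.22 and limma adjusted p from 0.114 to 0.148. SOCS1, a feedback inhibitor of cytokine signalling, had 69.3, 26.8, 34.9 and 10.4 FPKM in 5 nM replicates 1 to 4, against 12.3 FPKM in saline replicate 2 alone.

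**Figure D4:**
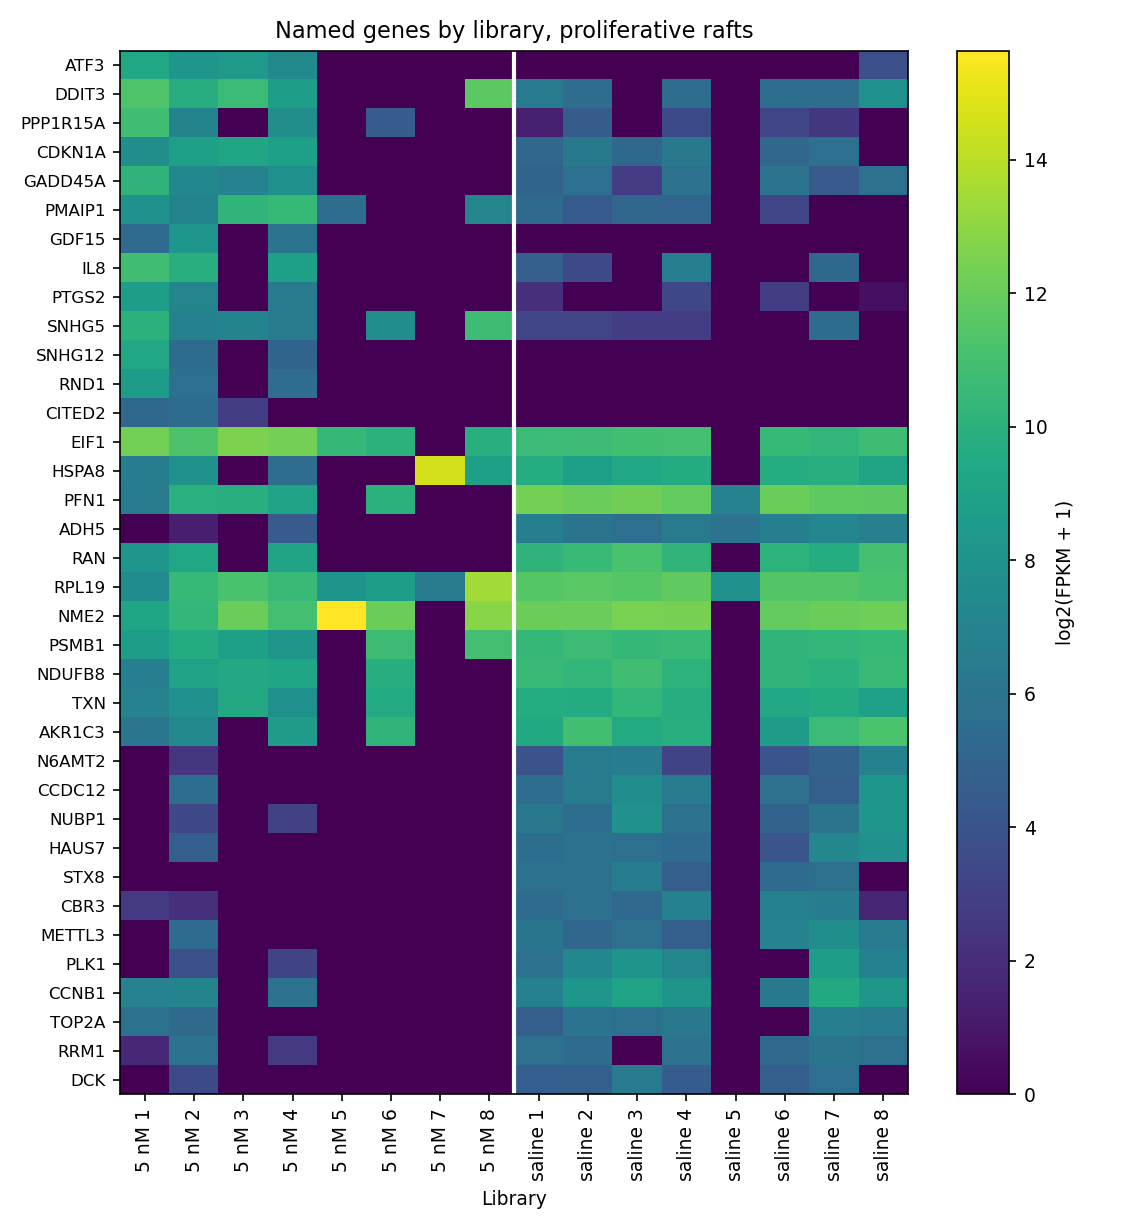
log2(FPKM + 1) (colour) of named genes (rows) in the 8 5 nM and 8 saline libraries (columns). The stress genes of the upper rows are brightest in 5 nM replicates 1, 2 and 4, several of them also in replicate 3, and the genes of the lower rows are mostly bright in the saline libraries other than replicate 5.

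HSPA8 and PFN1 fell in the libraries with a rho of 0.25 or more, though neither was called with the 5 nM and saline groups fitted alone. HSPA8, the constitutive cytosolic HSP70 chaperone, had 92.1, 246, 0, 46.6 and 0 FPKM in 5 nM replicates 1, 2, 3, 4 and 6, against 460.2, 782 and 903 FPKM (lowest, median and highest) in saline rafts. Every 5 nM raft of the set lay below every saline raft. The difference was -5.43 ± 0.96 (limma adjusted p = 0.00803), and without 5 nM replicate 3 the adjusted p was 0.0553. The libraries left out did not follow: HSPA8 had 477 FPKM in 5 nM replicate 8 and 24052 FPKM in replicate 7. With libraries of 1000 or more genes the difference of -5.30 ± 2.12 did not pass (limma adjusted p = 0.214). Untreated, saline and 2 nM proliferative rafts of 1000 or more genes had medians of 1032, 782 and 931 FPKM, against 46.6 FPKM at 5 nM. The HSPA8 promoter (chr11:123062087-123062386, minus strand) is shown because heat shock elements are its known control sites. It has GAANNTTC matches whose first bases are at -230 and -50, in capitals.
HSPA8: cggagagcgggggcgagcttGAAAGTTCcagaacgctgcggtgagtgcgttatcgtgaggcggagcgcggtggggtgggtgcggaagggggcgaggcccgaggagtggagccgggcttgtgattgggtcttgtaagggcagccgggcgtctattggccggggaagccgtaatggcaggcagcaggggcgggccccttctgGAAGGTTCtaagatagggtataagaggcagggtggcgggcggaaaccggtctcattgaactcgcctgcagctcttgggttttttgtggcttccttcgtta
Of 24 heat shock chaperone rows, 3 were higher and 21 lower with a rho of 0.25 or more (median -1.39, against -0.34), and HSPA8 was the only call. HSP90AA1 had a median of 151 FPKM in 5 nM rafts and 589.5 FPKM in saline rafts of 1000 or more genes.

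PFN1, profilin, which binds actin monomers, had 88.0, 985, 913, 515 and 1073 FPKM in 5 nM replicates 1, 2, 3, 4 and 6, against 3271, 4349 and 5383 FPKM (lowest, median and highest) in saline rafts. The groups did not overlap, with a difference of -2.96 ± 0.53 (limma adjusted p = 0.00803) that missed the threshold without 5 nM replicate 1 (limma adjusted p = 0.067). With a rho of 0.4 or more it was -3.55 ± 0.50 (limma adjusted p = 0.000615). PFN1 was at 757 to 1144 FPKM in bulk, near 4 of the 5 5 nM rafts, and had medians of 2669.75 and 2702 FPKM in untreated and 2 nM proliferative rafts of 1000 or more genes. With a rho of 0.4 or more TMSB4X, ARPC2 and MYL6 of the actin cytoskeleton fell as well, calls lost in 3, 1 and 8 of 10 cases when single libraries were left out. ARPC2, a subunit of the actin-branching ARP complex, had 74.8, 414 and 420 FPKM in 5 nM replicates 1, 2 and 4, against 659.7 to 1361 FPKM in saline rafts (-2.08 ± 0.45, limma adjusted p = 0.0181). Of 33 actin rows, 5 were higher and 28 lower with a rho of 0.25 or more (median -1.02). TUBB, a beta tubulin, fell with a rho of 0.4 or more (1.20, 543 and 32.99 FPKM in 5 nM replicates 1, 2 and 4, against 474 to 1308 FPKM in saline rafts; limma adjusted p = 0.0193).

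The 8 rows that fell with libraries of 1000 or more genes belonged to genes that most 5 nM libraries listed at 0. N6AMT2, a lysine methyltransferase of elongation factor EF1A, had 4.58 FPKM in 5 nM replicate 2 and was listed at 0 in the other seven, against 8.23, 30.3 and 114 FPKM (lowest, median and highest) in saline rafts. Its difference was -4.80 ± 0.91 (limma adjusted p = 0.00609), and it alone of the 8 kept its call whichever of the 14 libraries was left out. CCDC12, a spliceosome-associated protein, had 48.96 FPKM in 5 nM replicate 2 alone, against 25.9 to 299 FPKM in saline rafts (-5.62 ± 1.30, limma adjusted p = 0.047). HAUS7, a subunit of the augmin complex of the spindle, had 24.4 FPKM in 5 nM replicate 2 alone, against 16.4 to 242 FPKM in saline rafts (-5.32 ± 1.16, limma adjusted p = 0.0386). NUBP1, which assembles iron-sulfur clusters, had 9.61 and 7.11 FPKM in 5 nM replicates 2 and 4, against 30.7 to 297 FPKM (-5.50 ± 1.23, limma adjusted p = 0.0386). CBR3, a carbonyl reductase, had 5.43 and 3.46 FPKM in 5 nM replicates 1 and 2, against 2.22 to 118 FPKM (-4.83 ± 1.10, limma adjusted p = 0.0421). STX8, an endosomal SNARE, GNB1L and BCMS were listed at 0 in all 8 5 nM rafts and had medians of 52.9, 12.2 and 28.25 FPKM in saline rafts (limma adjusted p = 0.047, 0.0386 and 0.0386). In untreated proliferative rafts of 1000 or more genes the same 8 genes were detected in 0 to 3 of 5 libraries, with N6AMT2 and GNB1L in 0. None passed with a rho of 0.25 or more, where limma adjusted p ran from 0.106 to 0.176. METTL3, the catalytic subunit that methylates adenosine in messenger RNA, came next by p (43.9 FPKM in 1 5 nM raft, against 25.5 to 217 FPKM in saline rafts; limma adjusted p = 0.0508), followed by SMYD3 and BRE. ADH5, which oxidises formaldehyde bound to glutathione, had 1.44 and 21.85 FPKM in 5 nM replicates 2 and 4 and was listed at 0 in the other six, against 52.0 to 151 FPKM in all 8 saline rafts. The groups did not overlap, and ADH5 passed only with a rho of 0.4 or more (-4.60 ± 0.81, limma adjusted p = 0.005155).

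Lists of the growth machinery had medians below that of all rows, by little for the cytosolic ribosome with a rho of 0.25 or more, while few single genes passed. Of 34 proteasome rows, 2 were higher and 32 lower with a rho of 0.25 or more (median -1.72, against -0.34), none of them called. Their summed share of FPKM was 1.29%, 1.83%, 1.96%, 1.57% and 1.56% in 5 nM replicates 1, 2, 3, 4 and 6, and 2.04% to 3.13% in saline rafts of the same set, without overlap. PSMB1, a subunit of the catalytic core, had 439.9, 789 and 308 FPKM in 5 nM replicates 1, 2 and 4, against 1209 to 1680 FPKM in saline rafts, and fell with a rho of 0.4 or more (-1.56 ± 0.34, limma adjusted p = 0.0174), as PSMB3 did. Single left-out libraries ended the PSMB1 call in 2 of 10 cases and the PSMB3 call in 7. Of 60 rows for mitochondrial ribosomal proteins, 5 were higher and 55 lower (median -1.87), and of 70 for the respiratory chain and ATP synthase 10 were higher and 60 lower (median -1.28). NDUFB8 and NDUFB10 of complex I, UQCR10 of complex III and ATP5C1 of the ATP synthase fell with a rho of 0.4 or more. NDUFB8 had 107, 520.2 and 578 FPKM in 5 nM replicates 1, 2 and 4, against 1031 to 1815 FPKM in saline rafts (-2.08 ± 0.50, limma adjusted p = 0.0342), and its call was lost in 6 of 10 cases, that of NDUFB10 in 8 and that of UQCR10 in 4. Of 71 rows for cytosolic ribosomal proteins, 6 were higher and 65 lower with libraries of 1000 or more genes (median -1.50, against -0.70 over all rows). With a rho of 0.25 or more 22 were higher and 48 lower (median -0.36, against -0.34), and with a rho of 0.4 or more 16 were higher and 54 lower (median -0.61, against 0.23). RPL19 and RPL34 were their only calls with a rho of 0.4 or more, and RPL19 had 184, 1403 and 1575 FPKM in 5 nM replicates 1, 2 and 4, against 2300 to 3535 FPKM in saline rafts (-1.98 ± 0.41, limma adjusted p = 0.0151). All 5 metallothionein rows were lower in each set (median -2.48 with a rho of 0.25 or more), none of them called. Of 20 NRF2 target rows, 4 were higher and 16 lower (median -1.42), and TXN, TALDO1 and AKR1C3 fell with a rho of 0.4 or more. The summed share of FPKM of that list did not fall. It was 4.28%, 3.86%, 13.8%, 9.995% and 11.3% in 5 nM replicates 1, 2, 3, 4 and 6, against 3.66% to 7.54% in saline rafts. TXN, thioredoxin, had 122, 243 and 232 FPKM in 5 nM replicates 1, 2 and 4, against 501 to 1312 FPKM in saline rafts (-2.05 ± 0.46, limma adjusted p = 0.0222).

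**Figure D5:**
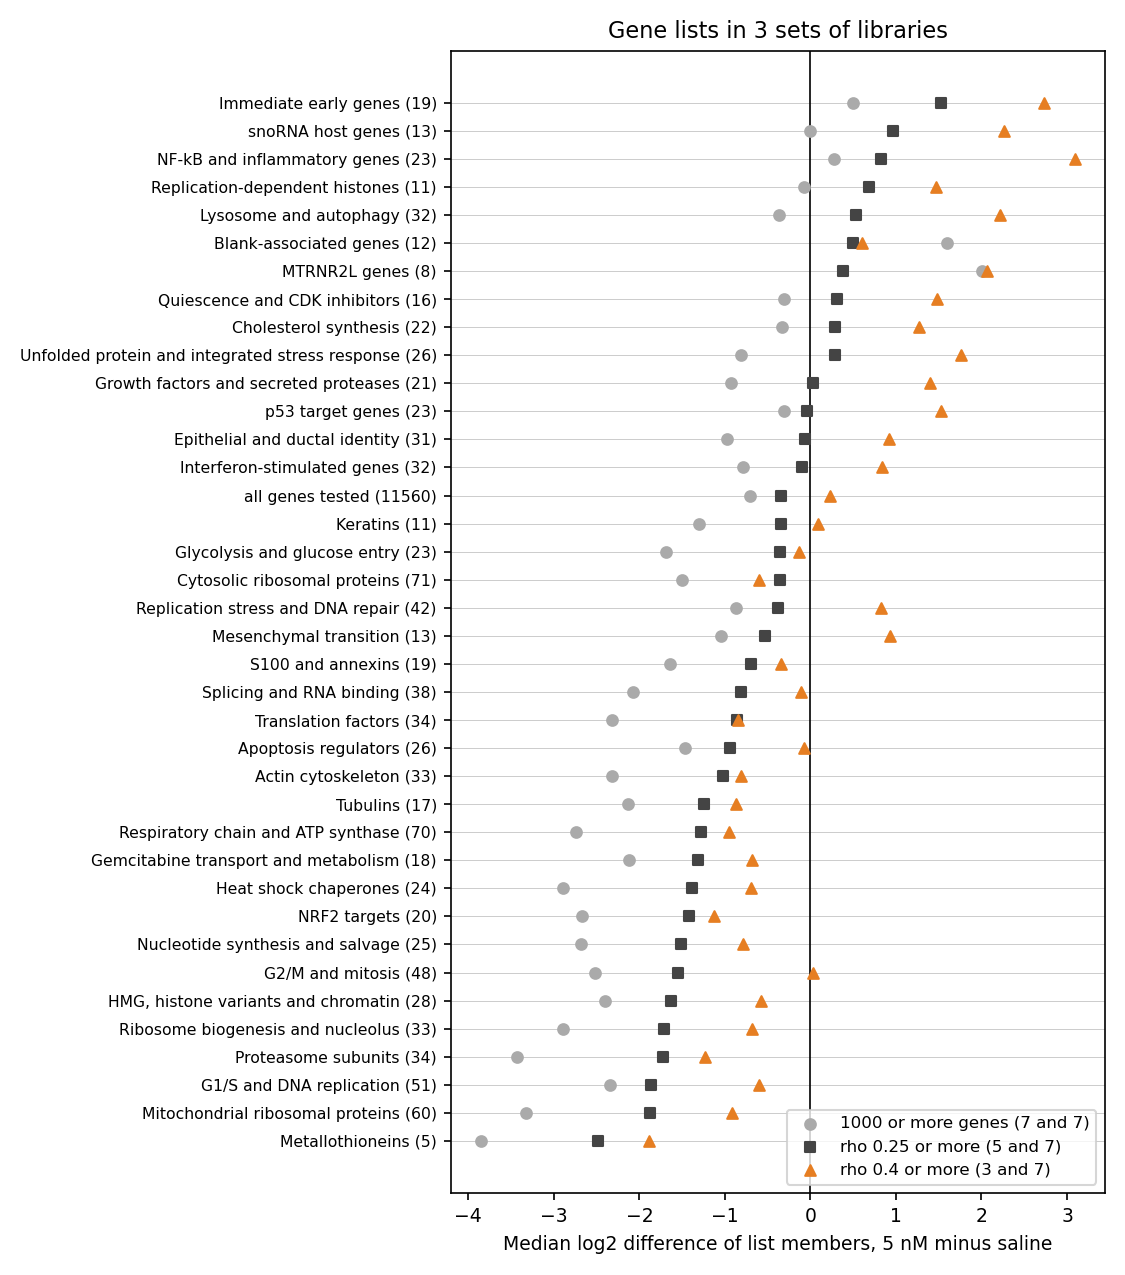
Median log2(FPKM + 1) difference, 5 nM minus saline, of each gene list (y axis, with its number of tested rows) in libraries of 1000 or more genes, of a rho of 0.25 or more and of a rho of 0.4 or more. Medians of most lists shift to the right from the first set to the third, as the median of all rows does (-0.70, -0.34 and 0.23).

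No row of the mitosis and replication lists was called in any of the 3 sets of libraries, although all 16 rafts carry the label proliferative. Of 48 rows of mitosis genes, 46 were lower with libraries of 1000 or more genes and 45 with a rho of 0.25 or more (medians -2.52 and -1.55), but 24 with a rho of 0.4 or more (median 0.03, which turned to -0.14 after quantile normalization and -0.44 with genes detected as a covariate). The number detected was 40, 48, 2, 27 and 4 in 5 nM replicates 1, 2, 3, 4 and 6, and 18 to 48 in the 7 saline rafts. The 5 nM replicates 1, 2 and 4 thus lay within the saline range, with replicate 4 below every saline raft but replicate 6. The 5 nM replicates 3 and 6 detected few. PLK1, a mitotic kinase, had 13.2 and 8.12 FPKM in 5 nM replicates 2 and 4 and was listed at 0 in the other six, against 0, 145 and 438 FPKM (lowest, median and highest) in saline rafts (-5.30 ± 1.30 with 1000 or more genes, limma adjusted p = 0.0694). CCNB1, the mitotic cyclin, had 122, 129.97 and 56.6 FPKM in 5 nM replicates 1, 2 and 4, against 78.75 to 726 FPKM in saline rafts. These were named after their values were seen. TOP2A, a topoisomerase of dividing cells, had 58.6 and 40.7 FPKM in 5 nM replicates 1 and 2 alone, against 0, 60.3 and 100.2 FPKM (lowest, median and highest) in saline rafts. MKI67, the Ki-67 antigen, had 4.14 and 28.8 FPKM in the same 5 nM rafts and 0 to 28.2 FPKM in saline rafts of 1000 or more genes, but 2587 FPKM in saline replicate 5. PCNA, the sliding clamp of replication, had 72.4, 183, 0, 3.83 and 0 FPKM in 5 nM replicates 1, 2, 3, 4 and 6, against 0, 162 and 204 FPKM (lowest, median and highest) in saline rafts, and 907 FPKM in 5 nM replicate 8, which was not in the set. Of 51 rows for replication genes, 47 were lower with a rho of 0.25 or more (median -1.86) and 33 with a rho of 0.4 or more (median -0.60, or -1.32 with the covariate).

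Genes that handle gemcitabine were followed whatever their p. DCK, the kinase of its first phosphorylation, had 10.2 FPKM in 5 nM replicate 2 and was listed at 0 in the other seven, against 0, 25.1 and 86.7 FPKM (lowest, median and highest) in saline rafts. Its difference was -3.90 ± 1.14 with libraries of 1000 or more genes (limma adjusted p = 0.096) and -3.71 ± 1.33 with a rho of 0.25 or more (limma adjusted p = 0.292). RRM1, the large subunit of ribonucleotide reductase, had 2.33, 58.1 and 4.93 FPKM in 5 nM replicates 1, 2 and 4, against 0, 52.7 and 62.4 FPKM in saline rafts, and RRM2, the small subunit, had 27.2, 246 and 13.9 FPKM, against 0, 44.4 and 71.9 FPKM. CDA, the deaminase that inactivates the drug, had 28.6, 399, 103 and 2.24 FPKM in 5 nM replicates 1, 2, 4 and 6, against 0, 98.1 and 228 FPKM in saline rafts. SLC29A1, a nucleoside transporter, had 57.95, 24.0 and 24.9 FPKM in replicates 1, 2 and 4, against 0, 90.9 and 176 FPKM. TYMS, thymidylate synthase, had 19.1, 39.4 and 9.56 FPKM in those replicates, against 0, 21.5 and 156 FPKM. All of these overlapped between the groups and none passed. Of 18 tested rows for gemcitabine transport and metabolism, 2 were higher and 16 lower with a rho of 0.25 or more (median -1.31). The 1 call was NME2, a nucleoside diphosphate kinase, with a rho of 0.4 or more: 609, 1330.3 and 2004 FPKM in 5 nM replicates 1, 2 and 4, against 3732 to 5855 FPKM in saline rafts (-1.97 ± 0.38, limma adjusted p = 0.0108). NME2 was at 50815 FPKM in 5 nM replicate 5, and it lies next to the closely similar NME1, between which reads may be split.

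Whether the 5 nM difference depended on proliferation was tested as an interaction. With libraries of 1000 or more genes no row was called (0 of 11560, 0%), and 363 had an unadjusted p under 0.05. With a rho of 0.25 or more 11 rows were called (0.0952%), 9 positive (0.0779%) and 2 negative (0.0173%), on 3 nonproliferative 5 nM libraries. ATF3, HSPA8 and PFN1 were not among them.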

How the data were processed

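The deposited table gives 1 FPKM value per row and library for 30504 rows (27118 distinct names, 1116 of them on more than 1 row) and 120 libraries. No label states the unit, and it was taken as FPKM from the values: the authors' column totals run from 339644 to 817990, and 566758 to 804046 in the 16 libraries compared. RSEM and hg19 are named per the submitters' processing notes, and versions and annotation are not given in the sources used here. Libraries were made with SMARTer and Nextera XT kits, per the labels' protocols. The kits amplify complementary DNA by PCR, so low-input libraries can list an expressed gene at 0. The files give no counts, so depth is unknown and no counting interval is given.

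Values were taken as log2(FPKM + 1) and fitted with limma 3.58.1 (trend, R 4.3.3) in 1 model of the 8 treatment and proliferation groups. The fit covered 11560 rows with an FPKM of 1 or more in 8 libraries or more, with Benjamini-Hochberg adjustment over all of them and a threshold of 0.05. With a rho of 0.4 or more the model lacked the untreated nonproliferative group, whose highest rho was 0.394. There the nonproliferative 5 nM group held replicate 8 alone (rho 0.404). Genes detected and rho were compared by two-sided exact permutation tests. Python 3.11.15 with pandas 2.3.3, NumPy 2.4.6, SciPy 1.17.1, statsmodels 0.14.6 and matplotlib 3.10.9 was used, and the fit was tested on simulated data. The results follow for libraries of 1000 or more genes, a rho of 0.25 or more and a rho of 0.4 or more, in turn. Of 50 rows shifted by 2 log2 units, 6, 10 and 3 were recovered. For a shift of 6 these were 40, 46 and 47. Of 11360 rows without a shift, 4, 6 and 7 were called. The simulation shuffled the residuals of each row over the libraries of all groups. That removed unequal spread between groups and shifts shared by many genes. These counts therefore do not give the rate of false calls in the real data. Named genes were up to 10 passing genes each way with the largest change in libraries of 1000 or more genes and up to 5 each way with a rho of 0.25 or more, with detection in 0.5 or more of the higher group's libraries. Where fewer passed, the smallest p filled the list as values only. Up to 4 passing members and 4 members of highest level per list, and 10 genes whatever their p (the proliferation genes TOP2A, MKI67 and PCNA, the drug handling genes SLC29A1, DCK, CDA and TYMS, both RRM genes, and CDKN1A), were added. Names on more than 1 row and unplaced identifiers were skipped. EPCAM, CFTR, CCNB1, PLK1, JUN, NFKBIA, DDIT3, PMAIP1, GADD45A and MAP1LC3B were named after their values were seen. The libraries compared and the gene lists were chosen with earlier results of these data known. Lists are described by counts and medians, with no test.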

Additional observations from a re-analysis of the deposited data

Results flagged for a closer look

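Saline replicate 5 stood apart from the other 7 saline libraries in 3 measures. Its rho with bulk was 0.08, against 0.466 to 0.808 in the others. The MTRNR2L genes held 6.212% of its FPKM, against 0.013% to 0.21%, and its 50 highest genes held 83.505%, against 25.198% to 32.083%.

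Among libraries of 1000 or more genes, single libraries stood apart on the log2(FPKM + 1) scale in named genes. 5 nM replicate 2 was the only 5 nM library above 0 for CCDC12 (5.64), HAUS7 (4.66), N6AMT2 (2.48) and DCK (3.49). Saline replicate 8 was at 0 for STX8, PCNA, CDKN1A, DCK and CDA, at 1.69 for CBR3, where the others had 5.31 or more, and at 3.81 for ATF3, where the others were at 0. Saline replicate 6 was at 0 for TOP2A and saline replicate 3 at 0 for RRM1. With the 3 measures of saline replicate 5 given above, the cases number 16 among 50 groups of values examined. The groups share libraries, and many of the genes were examined because they were called. Where all other libraries are at 0, any value above 0 stands apart, so no rate by chance is given. Without saline replicate 8 the count of calls in libraries of 1000 or more genes was 48 in place of 8.

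The 5 nM minus saline difference differed between proliferative and nonproliferative rafts for 11 rows in libraries with a rho of 0.25 or more (limma interaction, adjusted p from 0.00653 to 0.0498), on 3 nonproliferative 5 nM libraries. The proliferative difference was the more positive for LMAN2 (10.35), TNFRSF12A (8.97), PKM (8.51), COPE (8.15), TAGLN2 (7.68), CYSTM1 (7.52), APRT (7.43), BECN1 (7.34) and S100A16 (6.32), all in log2 units. It was the more negative for FBXO15 (-2.96) and LOC100287639 (-2.85). None of the 11 was called with libraries of 1000 or more genes, where the interaction gave 0 calls.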

How the results depend on the processing

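The counts of calls depended on the setting more than any other value. With libraries of 1000 or more genes (8 calls), 24 of 26 alternatives moved the count by over 1.5 times: 54 calls with the 2 groups fitted alone, 0 with the 4 proliferative groups alone, 0 against the mean of saline and untreated rafts, 14 after quantile normalization, 2 with genes detected as a covariate, 2 and 21 with pseudocounts of 0.1 and 10, and 1 each with all 64 libraries, with equal totals or with a filter of 1 library. Leaving out single libraries gave 1 to 185 calls, the most without 5 nM replicate 2. Leaving the 5 nM libraries under a rho of 0.25 out of that group only, chosen after seeing the data, gave 3.

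With a rho of 0.25 or more (3 calls) there were 0 calls with the 2 groups alone, 34 after quantile normalization, 10 with the covariate and 143 with a rho of 0.4 or more, and 1 to 35 when single libraries were left out. At a rho of 0.4 or more, settings added after seeing the data gave 145 with quantile normalization, 151 with the covariate, 99 with the 2 groups alone and 43, 253 and 184 without 5 nM replicates 1, 2 and 4 in turn. Quantile normalization brought the median of all rows from -0.70 to 0.06 in the first set, from -0.34 to 0.04 in the second and from 0.23 to -0.06 in the third. The interaction count was 11 with a rho of 0.25 or more, against 0.

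The lower rho with bulk missed 0.05 in 13 alternatives, as in the main test, and passed in 5. Those that passed included bulk genes at 10 FPKM or more (-0.257) and libraries of 1000 or more genes (-0.311). Without single libraries the rho difference ran from -0.351 to -0.228. The difference in genes detected kept its side in 19 of 19 alternatives, and ran from -2976 to -1551 without single libraries. Differences of named genes turned positive with a rho of 0.4 or more for MKI67 (0.31), CDA (1.18), RRM2 (1.55), TYMS (0.95) and SLC29A1 (0.0497), none of them called. Of the list medians under alternatives, 102 moved by more than the spread between libraries and 132 did not, most of those that moved with a rho of 0.4 or more. The causes were not tested. No paired analysis was possible because the labels number the rafts of the 2 groups differently. Treatment and pool cannot be told apart, cell numbers per raft are unknown, and a p that missed the threshold does not show that values were alike.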
